A study of Sus scrofa with 2 samples.

Results

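The cells described here are the IL33-high, APOA1-low cells of the pig antral follicle, a group of barcodes selected on their own unique molecular identifier (UMI) counts. A barcode was taken when it held 20 or more UMIs of IL33, at least 3 times as many IL33 as APOA1 UMIs, fewer than 10 UMIs of VCAN, and fewer than 5 UMIs of TOP2A, UBE2C and CENPF together. Only barcodes with 2000 to 5000 detected genes and under 7% of their UMIs from the 13 mitochondrial genes were considered. The rule took 5202 of the 17205 barcodes inside these limits, out of 29837 deposited in all. There were 2280 such cells in AF75, the library of follicle 1, and 2922 in AF76, the library of follicle 2.

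Both libraries were made from somatic cells of healthy antral follicles over 7 mm in diameter, and each follicle gave 1 library. According to the labels and the study's methods, they came from 1 pubertal pig of a Landrace × Yorkshire cross, 210 days of age, which had received pregnant mare serum gonadotropin to drive follicle growth. The follicular fluid was flushed out, the cumulus-oocyte complexes were treated with hyaluronidase, and the suspended cells were pelleted and run on the 10x Genomics platform. AF75 and AF76 therefore share the animal and the hormone treatment, no untreated follicle was analysed here, and a difference between them compares 2 libraries rather than 2 conditions.

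Antral follicles are lined by granulosa cells, which fall into mural cells along the wall and cumulus cells around the oocyte. Mural cells convert androgens to oestrogens, secrete inhibins and, after the gonadotropin surge, pass the signal on through EGF-like ligands. IL33 encodes an alarmin of the interleukin-1 family that is stored in the nucleus, and APOA1 the main protein of high-density lipoprotein. VCAN encodes versican, a proteoglycan of the expanding cumulus matrix, and TOP2A, UBE2C and CENPF are genes of dividing cells.

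The 2 libraries held 14289 and 15548 barcodes with 125409747 and 127414267 UMIs. The IL33-high, APOA1-low cells carried 27397746 UMIs in AF75 and 43213078 in AF76, with medians of 11718.5 and 14552.5 UMIs and 3238 and 3544 genes per cell. The other barcodes inside the limits were a little shallower, with medians of 11076 and 13382 UMIs. The mitochondrial share was higher in the IL33-high, APOA1-low cells, at a median of 3.13% in AF75 and 3.12% in AF76 against 2.43% and 2.87%. The libraries shared 56 barcode sequences; 21 of the chosen cells carried one, and none was chosen in both libraries. Each level below is the summed UMIs of a gene per 1000000 UMIs of the group (CPM) with its exact 95% Poisson interval where printed, and each ratio of CPM has an exact conditional interval. These intervals cover counting error only. With 1 library per follicle, a difference between the follicles has no replicate error. No p-value was computed, and between groups of cells a gene was counted as different only when it passed a fold in both follicles.

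The rule took 24.4% of the barcodes inside the limits in AF75 (exact binomial interval 23.5 to 25.2%) and 37.3% in AF76 (36.2 to 38.3%). The larger share in AF76 followed both IL33 clauses: 43.8% of the barcodes of AF75 and 54.2% of those of AF76 held 20 or more IL33 UMIs, and 31.9% and 53.9% held at least 3 times as many IL33 as APOA1 UMIs. Fewer barcodes of AF75 were under 10 VCAN UMIs, 52.8% against 80.8%. Of the barcodes that met both IL33 clauses, 283 in AF75 and 250 in AF76 held 10 or more VCAN UMIs, whatever their cell division sum, and a further 16 and 24 under that limit failed on the cell division sum. Among the chosen cells IL33 had a median of 50.5 UMIs in AF75 and 54 in AF76, and APOA1 medians of 5 and 3 UMIs. No APOA1 UMI was seen in 51 of the chosen cells in AF75 and in 341 in AF76.

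The thresholds cut through a continuum rather than a gap. Just inside the IL33 limit, at 20 to 24 UMIs, lay 176 chosen cells in AF75 and 264 in AF76, while 138 and 242 barcodes that met the other clauses lay just outside it at 15 to 19. Just inside the ratio, from 3 to under 4, were 203 and 183 chosen cells, and from 2 to under 3 there were 221 and 195 barcodes that met the other clauses.

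For a comparison with cells that met the same VCAN and cell division clauses, a mirror group was formed by exchanging IL33 and APOA1 in the rule. These APOA1-high, IL33-low cells, also under 10 VCAN UMIs and under 5 UMIs of the cell division genes, numbered 441 in AF75 and 458 in AF76, or 4.71% and 5.84% of the barcodes inside the limits. Below the VCAN limit the mirror group still held more VCAN, with medians of 6 and 4 UMIs per cell against 2 and 1 in the chosen cells, and levels of 485 and 318 CPM against 238 and 134. Its cumulus markers summed to 869 and 647 CPM against 489 and 393. The part of this cumulus signal in the ratios to the mirror group was not tested. Both groups were chosen on the same readout, so all ratios between them are descriptions.

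The granulosa identity of the chosen cells was checked against 16 fixed markers, of which 14 were found by name and 13 tested. INHA, the inhibin alpha subunit, stood at 23760 CPM in AF75 and 24360 in AF76. SERPINE2, a secreted protease inhibitor, was at 7513 and 7095.5 CPM, and NR5A2, a nuclear receptor of steroidogenic cells, at 611 and 502. Against the other barcodes 1 of the 13 was higher and 3 were lower by the fold, against 0.886% and 2.78% of all genes. CYP19A1 was higher and INHBA and INHBB were lower. FSHR was lower too, but reached the filter on low values only through the other barcodes, with 197 and 215 UMIs there against 3 and 20, and AMH had no UMI in the chosen cells of either follicle. The cumulus list, which includes VCAN, summed to 489 and 393 CPM against 4469 and 1088 in the other barcodes, and SHAS2, the hyaluronan synthase of the cumulus matrix, was at 5.04 and 0.602 CPM against 105 and 4.29. CDH5, an endothelial cadherin, and the oocyte genes ZP2, ZP3, ZP4 and BMP15 had no UMI in the chosen cells or in the other barcodes of either follicle. The 6 endothelial markers found summed to 11.2 and 13.8 CPM against 19.04 and 10.6 in the other barcodes, and its members went different ways. PECAM1 was at 6.8984 and 7.17 CPM against 3.28 and 4.99, KDR at 4.015 and 5.785 against 14.9 and 3.17, VWF at 0.073 and 0.648 against 0.2147 and 2.115, and TEK at 0.1825 and 0.1851 against 0.68 and 0.2587. The 6 oocyte markers summed to 5.55 and 5.16 CPM against 4.78 and 5.25, nearly all from GDF9. The 10 immune markers summed to 15.2 and 12.1 CPM, against 12.4 and 14.6 in the other barcodes. The theca and stromal list reached 505 and 678 CPM, against 370 and 541 elsewhere, mostly from INSL3 at 375 and 584 CPM, while the theca enzyme CYP17A1 was at 2.63 and 1.99 against 1.06 and 1.32. TAGLN, a contractile cell marker, was the member of that list that passed the fold, lower at 3.94 and 5.39 CPM against 7.99 and 24.2, 1 of 4 genes tested against 2.78% of all genes. The chosen cells of AF75 alone held under 200 UMIs of it, so nothing is read from its call. The other members went different ways without passing the fold or reaching the filter: INSL3, LHCGR, STAR and CYP17A1 were above the other barcodes in both follicles, DCN, COL1A1, COL1A2, COL3A1, PDGFRA and ACTA2 below, and LUM and TCF21 differed in direction between the follicles. None of the sums of the endothelial, oocyte, immune and theca lists was lower than elsewhere in both follicles, and the part that transcripts of other cell types take in the differences below was not tested. Most VCAN-rich barcodes were removed by the rule itself, so the low cumulus markers partly restate it.

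Of the 6 marker genes, IL33 was part of the rule, and 4 of the other 5 were at least 1.5-fold higher in the chosen cells than in the other barcodes in both follicles. Over all genes the corresponding share was 0.886% of 9709 genes tested. The genes were proposed with these data known, so nothing is read from that count. IL33 itself was at 4906 CPM in AF75 and 4426 in AF76, against 1371 and 1346 in the other barcodes and 856 and 785 in the APOA1-high, IL33-low cells. APOA1 was at 493 and 318 CPM, against 5267 and 2281 and, in the mirror group, 7213 and 6745.

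TGFB3 (chr7:99133873-99162239, Sscrofa11.1, minus strand, 8 exons in its longest transcript) encodes a secreted ligand of the TGF-beta family. It was at 233 CPM in AF75 and 254 in AF76 in the chosen cells, against 72.9 and 88.2 in the other barcodes and 68.0 and 69.9 in the mirror group. The ratios to the other barcodes were 3.19 (3.08 to 3.31) and 2.88 (2.79 to 2.98), and those to the mirror group 3.42 (3.06 to 3.84) and 3.64 (3.31 to 4.01). With the genes of the rule left out, TGFB3 ranked highest in both comparisons among genes of at least 20 CPM, ordered by the follicle nearer to 1, while against the mirror group in AF75 CYP19A1 at 3.63 and ENPP2 at 3.58 were above it. Single cells held few of its transcripts, with a median of 1 UMI in each follicle, and after thinning to 5000 UMIs 56.7% of the chosen cells of AF75 had none.

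ENPP2 (chr4:19319815-19433492, plus strand, 27 exons) encodes autotaxin, the secreted enzyme that makes lysophosphatidic acid. Its level was 113 CPM in AF75 and 99.9 in AF76 against 38.3 and 45.3 in the other barcodes and 31.5 and 30.7 in the mirror group, ratios of 2.94 and 2.20 to the former and 3.58 and 3.25 to the latter. Of the 9 genes listed for the pathway 8 were found and 5 tested against the other barcodes, where ENPP2 was higher and the receptor LPAR2 lower, at 1.39 and 1.16 CPM against 2.16 and 2.94. LPAR2 had 38 and 50 UMIs against 181 and 193 and reached the filter on low values through the other barcodes, so nothing is read from its call. Over all genes the shares were 0.886% higher and 2.78% lower, and ENPP2 is itself one of the marker genes. LPAR6, another receptor, differed little, at 21.3 and 22.9 CPM against 20.04 and 23.7.

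LIMCH1 (chr8:32433035-32792553, plus strand, 35 exons) encodes an actin- and myosin-associated protein. It was at 153 and 181 CPM against 74.6 and 114 in the other barcodes, ratios of 2.05 and 1.58, and 1.72 and 1.71 times the mirror group. CYB5A (chr1:149737584-149773222, plus strand, 6 exons) encodes cytochrome b5, an electron donor to steroidogenic P450 enzymes. It was at 688 and 810 CPM against 354 and 507, ratios of 1.94 and 1.60, and 1.59 and 1.81 times the mirror group.

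AREG (chr8:70417935-70428106, plus strand, 6 exons), the EGF-like ligand amphiregulin, behaved otherwise. It was at 3965 CPM in AF75 and 6399 in AF76, against 2388 and 4612 in the other barcodes, but the mirror group held almost as much, 3764 and 5426. The ratio to the mirror group was 1.05 (1.04 to 1.07) and 1.18 (1.17 to 1.19), short of 1.5 in both follicles, and with a stricter IL33 to APOA1 ratio of 5 it turned just below 1 in AF75. The level of AREG therefore did not set the chosen cells apart from other cells poor in VCAN by the fold used here.

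**Figure D1:**
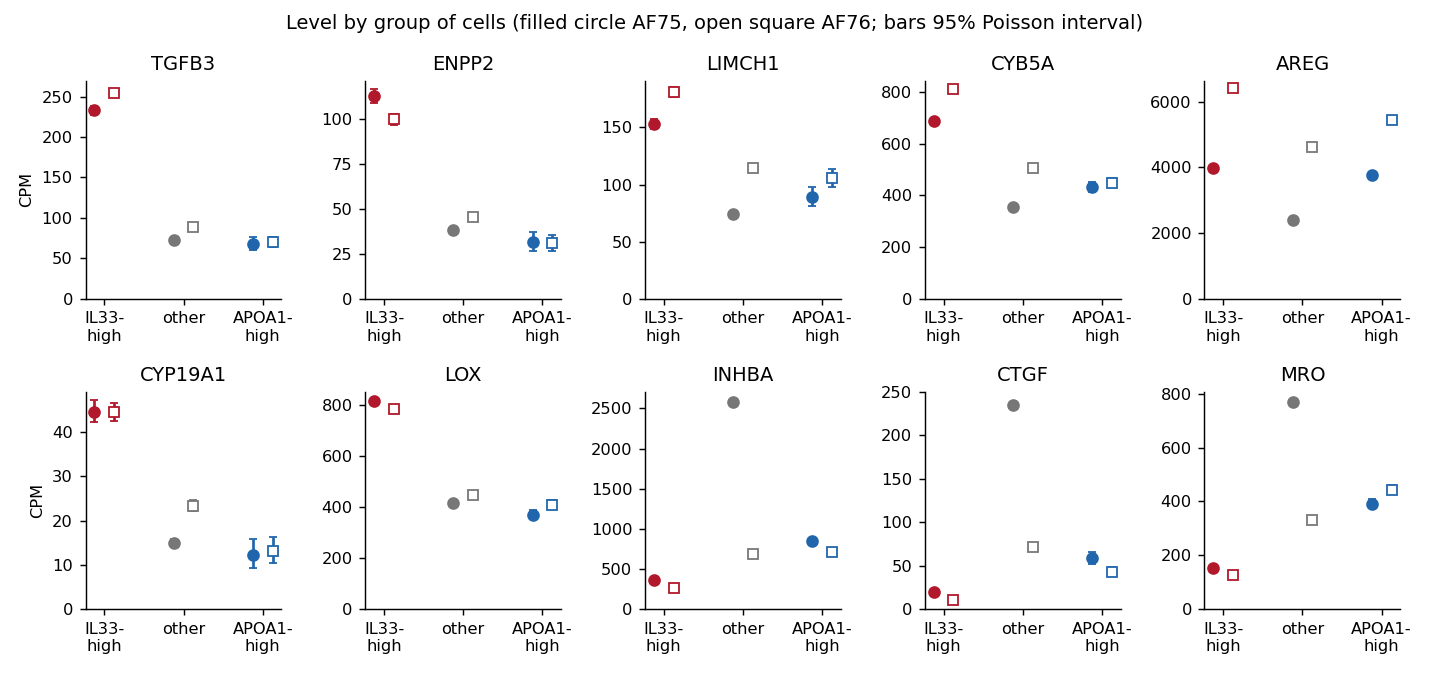
CPM of 10 genes in the IL33-high, APOA1-low cells (red), the other barcodes inside the limits (grey) and the APOA1-high, IL33-low cells (blue), each panel with its own axis from 0. Circles are AF75 and open squares AF76, with 95% Poisson intervals; TGFB3 sits at 233 and 254 CPM in the red group, and AREG at 3764 and 5426 in the blue group is close to its red values of 3965 and 6399.

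Against the other barcodes, 86 of the 9709 genes with at least 200 UMIs in each follicle were at least 1.5-fold higher in both follicles and 270 were at least 1.5-fold lower, or 2.78%. Higher genes included CYP19A1, the aromatase that makes oestrogens, and LOX, which cross-links collagen and elastin. CYP19A1 was at 44.6 CPM in both follicles against 15.1 and 23.4, ratios of 2.96 (2.73 to 3.21) and 1.90 (1.78 to 2.04). LOX was at 816 and 784 CPM against 414 and 447.

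TSPAN12, a tetraspanin of the Norrin receptor complex, was at 63.4 and 60.8 CPM against 23.5 and 26.5. WEE1, the kinase that holds back entry into mitosis, was at 199 and 193 CPM against 112 and 111, and MTHFD2, a mitochondrial folate enzyme, at 243 and 242 against 135 and 145. The transporter SLC37A2, the membrane proteins TMEM45A, LRP11 and PQLC1, the nuclease-like ENDOD1, the exchange factor IQSEC2, the sarcomeric protein MYOM2 and the gene with the identifier ENSSSCG00000003599 completed the 15 highest, with ratios in AF76 from 1.67 for SLC37A2 to 1.86 for PQLC1.

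CTGF, a matricellular protein, was at 20.4 and 10.7 CPM against 235 and 71.9, ratios of 0.0868 and 0.149. THBS1, thrombospondin, was at 34.2 and 20.6 CPM against 470 and 74.3, and INHBA, the beta A subunit of activin and inhibin A, at 366 and 273 against 2581 and 688. S1PR1, a sphingosine-1-phosphate receptor, was at 62.1 and 55.6 CPM against 389 and 141, and F3, tissue factor, at 5.58 and 7.75 against 31.1 and 32.5. In AF75 F3 reached the filter through the other barcodes, where it was higher, so nothing is read from its call. The ratio of the tight junction gene CLDN11 was 0.248 and 0.142, that of the fibulin gene FBLN1 0.260 and 0.349, and that of the transcriptional inhibitor ID3 0.380 and 0.407. NCKAP5, TNFAIP8L3, CRISPLD2, MRO, AOX1 and the identifiers ENSSSCG00000023322 and ENSSSCG00000031023 were also among the 15 lowest.

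The other barcodes include cells with 10 or more VCAN UMIs, 4422 in AF75 and 1509 in AF76, and dividing cells. They also include barcodes with little INHA, with 5th percentiles of 57 and 11 UMIs against 142 and 167 in the chosen cells. The part of those barcodes in the ratios was not tested. When only other barcodes under 10 VCAN UMIs and under 5 UMIs of the cell division genes were kept, an alternative added after the data were seen, 42 genes were higher and 57 lower. With fewer barcodes, 72 of the 86 higher and 166 of the 270 lower genes still had 200 UMIs in each follicle, and 39 and 50 of them passed the fold again. Of the 15 named higher genes 11 still passed 1.5-fold, among them TGFB3 at 2.20 and 2.71, ENPP2 at 1.90 and 1.94, CYP19A1 at 1.88 and 1.70 and LOX at 1.62 and 1.66. Of the 15 named lower genes 12 still passed, and THBS1 at 0.805 and 0.265, ID3 at 0.908 and 0.360 and AOX1 at 0.694 and 0.358 did not. F3 was among the 12, and nothing is read from its call. CYB5A and LIMCH1 also missed the fold, at 1.33 and 1.47 and at 1.28 and 1.40.

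Against the APOA1-high, IL33-low cells, 130 of 8070 genes tested were at least 1.5-fold higher in both follicles, or 1.61%, and 92 were at least 1.5-fold lower, or 1.14%. The median log2 ratio over all genes was 0.02 in AF75 and 0.03 in AF76, values that the scaling to each group's total holds near 0. After TGFB3, the higher genes were led by CYP19A1, at 44.6 CPM in both follicles against 12.3 and 13.2, ratios of 3.63 (2.79 to 4.79) and 3.37 (2.71 to 4.25). ENPP2, TSPAN12, TMEM45A, SLC37A2, WEE1, PQLC1, LOX and ENDOD1, named above, were again among the 15 highest. The mirror group held 59 and 83 UMIs of CYP19A1, 151 and 193 of ENPP2 and 110 and 141 of TSPAN12. It alone was under the filter of 200 UMIs for these genes, which the chosen cells brought past it.

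Not among the earlier 15 was UAP1, which makes UDP-N-acetylglucosamine, the sugar donor for hyaluronan and glycoproteins. UAP1 was at 440 and 517 CPM against 231 and 247, ratios of 1.91 and 2.09. GUCY1A1, a subunit of the nitric oxide receptor, was at 53.6 and 48.2 CPM against 27.9 and 24.7, and AQP9, a channel for water and glycerol, at 39.2 and 30.2 against 21.1 and 13.9. The sialyltransferase ST6GALNAC4 was at 26.0 CPM in both follicles against 13.8 and 13.5, and TMEM41A, a membrane protein, at 22.6 and 20.6 against 11.7 and 10.5. In both follicles the mirror group alone was under the UMI filter for GUCY1A1, AQP9, ST6GALNAC4 and TMEM41A too. The chosen cells brought these genes past it.

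Among the lower genes DKK2, a secreted Wnt regulator, was at 6.61 and 5.14 CPM against 37.8 and 21.5, ratios of 0.175 and 0.239. NOV, a CCN family protein, was at 42.2 and 41.5 CPM against 168 and 136, and CTGF, of the same family, at 20.4 and 10.7 against 59.2 and 43.0. INHBA was at 366 and 273 CPM against 854 and 712, a ratio of 0.428 and 0.383. MRO was at 153 and 126 CPM against 392 and 444. Barcodes with 10 or more VCAN UMIs held 342 and 99.9 CPM of CTGF, 3614 and 1036 of INHBA and 1028 and 490 of MRO, each above the mirror group, and the part of VCAN-rich RNA in the lower values was not tested. Among the other low genes, the neurofilament genes NEFL and NEFM had ratios of 0.417 and 0.403 and of 0.274 and 0.463, the tubulin gene TUBB3 0.444 and 0.412, and SLC16A3, a lactate exporter, 0.370 and 0.428. The gene with the identifier ENSSSCG00000011147 was the most abundant of these, at 4854 and 4925 CPM against 10750 and 10840.

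**Figure D2:**
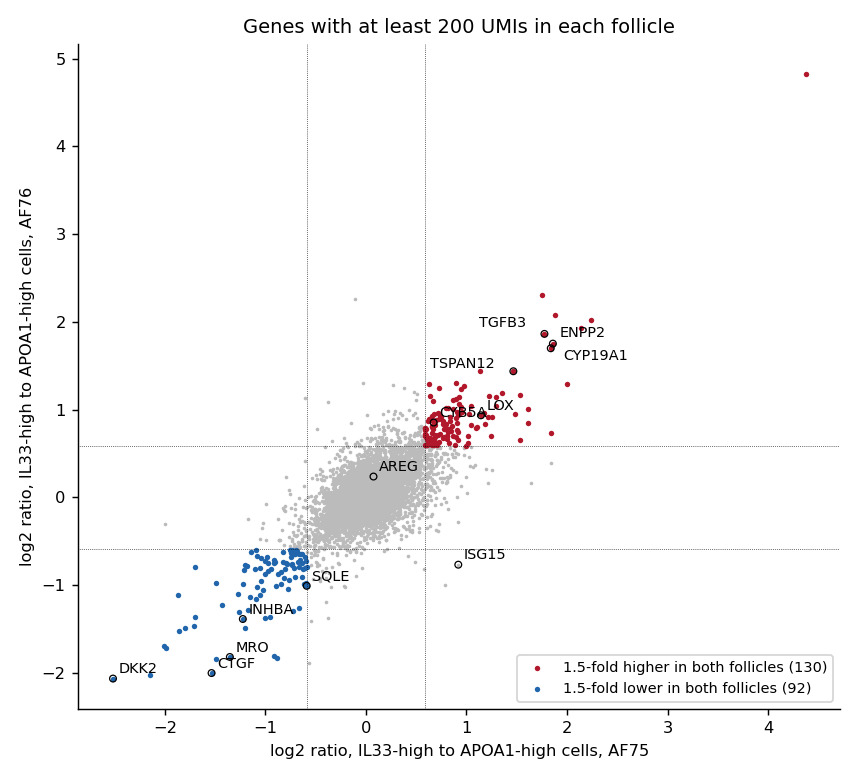
Each of the 8070 genes tested, by its log2 ratio of CPM in the IL33-high to the APOA1-high cells in AF75 (x axis) and AF76 (y axis), with dotted lines at 1.5-fold. Red points are the 130 genes higher and blue points the 92 genes lower in both follicles; TGFB3, ENPP2 and CYP19A1 lie together at the upper right, AREG lies inside the lines, and ISG15 lies on opposite sides in the 2 follicles.

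A gene under the abundance set for naming, and picked out after its values were seen, was SLN, which passed the filter on low values through the chosen cells. SLN, sarcolipin, which inhibits the calcium pump of the reticulum, was at 8.65 CPM in AF75 and 9.02 in AF76 from 237 and 390 UMIs. The other barcodes held 1.12 and 1.86 CPM, ratios of 7.71 (6.05 to 9.90) and 4.86 (3.96 to 6.01). The mirror group held 2 UMIs in each follicle, so its place at the upper right of the plot of ratios rests on those.

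The genes of steroid synthesis were led by CYB5A and CYP19A1. Of 14 listed 12 were found and 11 tested, and CYB5A and CYP19A1 were higher in both comparisons, 2 of 11 against 0.886% and 1.61% of all genes, with no gene lower. Against the mirror group CYP19A1, with 59 and 83 UMIs there, reached the filter through the chosen cells. Its median was 0 UMIs per chosen cell in both follicles. CYB5A is itself one of the marker genes. Against the other barcodes poor in VCAN and cell division genes it missed the fold, at 1.33 and 1.47. The median log2 ratio was 0.20 and 0.04 against the other barcodes and 0.17 and -0.01 against the mirror group. CYP11A1, which cuts the cholesterol side chain, was at 1871 and 1705 CPM against 1630 and 1663 in the other barcodes. STAR, which carries cholesterol into mitochondria, had ratios to the mirror group of 1.86 in AF75 and 1.22 in AF76. Of the gonadotropin receptors, FSHR was nearly absent from the chosen cells, at 0.109 and 0.463 CPM from 3 and 20 UMIs against 2.35 and 3.27 in the other barcodes. The mirror group was also low in FSHR, at 0.626 and 0.637 CPM from 3 and 4 UMIs. LHCGR was at 10.6 and 11.8 CPM against 8.49 and 10.7, and the fold was not passed.

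All 8 genes of the inhibin, activin and follistatin list were tested against the other barcodes, and 2 were lower, INHBA and INHBB, against 2.78% of all genes. INHBB, the beta B subunit, was at 19.2 and 14.4 CPM against 84.6 and 26.6, but its mirror-group levels of 13.98 and 15.3 were close to its own. INHA was 1.28 and 1.09 times the other barcodes and 1.10 and 0.996 times the mirror group. FST, follistatin, which binds activin, was at 130 and 132 CPM against 164 and 205 in the mirror group. INHBA passed the fold against both groups, while FST was below both groups in both follicles without passing it.

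Of the MAPK feedback genes, 9 were tested against the other barcodes, with 1 higher against 0.886% of all genes and 1 lower against 2.78%. The lower one was ETV4, a transcription factor, at 1.39 and 1.02 CPM against 3.15 and 2.405, from 38 and 44 UMIs against 264 and 158, so it reached the filter on low values through the other barcodes and nothing is read from its call. The higher one was RPS6KA3, a kinase downstream of ERK, at 625 and 597 CPM, 1.977 and 1.504 times the other barcodes and 1.86 and 1.62 times the mirror group. DUSP6, an ERK phosphatase, was at 67.4 and 72.3 CPM against 42.4 and 39.7 in the mirror group, ratios of 1.59 and 1.82. The 6 MAPK feedback genes tested there held 2 higher genes, against 1.61% of all genes, and none lower, with a median log2 ratio of 0.43 and 0.30. HBEGF, another EGF-like ligand, was lower than in the mirror group, at 12.2 and 9.95 CPM against 18.98 and 18.63. It was 1 of 6 genes of the EGF-like list tested there, against 1.14% of all genes.

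EREG, epiregulin, gave ratios to the other barcodes of 0.672 in AF75 and 1.82 in AF76, on both sides of 1. Of the TGF-beta list TGFB3 alone was called, 1 of 8 and 1 of 7 genes tested in the 2 comparisons, against 0.886% and 1.61% of all genes, and TGFB3 is itself one of the marker genes. TGFBR1, its type I receptor, was at 75.1 and 66.8 CPM against 86.9 and 69.7. In the interleukin-1 family, IL1R1, the receptor of interleukin-1, was lower at 2.26 and 2.11 CPM against 17.7 and 13.9, 1 of 5 genes tested against 2.78% of all genes. In both follicles the chosen cells alone held under 200 UMIs of it, so nothing is read from its call. IL1RL1 of the same list was not tested in either comparison. IL1RAP, the accessory chain that the IL33 receptor shares, was at 0.876 and 0.370 CPM against 0.799 and 0.761.

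The cholesterol synthesis list stood low against the mirror group. All 25 genes were found and 23 tested, and 21 of the 23 were below the mirror group in both follicles, against 30.4% of all genes tested there. The median log2 ratio was -0.37 in AF75 and -0.74 in AF76. MVD, SQLE, CYP51A1 and ACAT2 passed the fold, 4 of 23 against 1.14% of all genes. MVD, which makes isopentenyl diphosphate, was at 96.8 and 65.8 CPM against 153 and 158, ratios of 0.630 and 0.416. SQLE, squalene epoxidase, was at 230 and 189 CPM against 346 and 380, ratios of 0.665 and 0.497. CYP51A1, a demethylase of lanosterol, was at 102 and 84.7 CPM against 156 and 168. ACAT2, a cytosolic acetyl-CoA acetyltransferase, was at 162 and 123 CPM against 246 and 245.

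HMGCS1, an early enzyme of the pathway, was low by that fold in AF76 alone, with ratios of 0.862 and 0.496. Against the other barcodes none of the 23 genes passed, 18 were below 1 in both follicles against 41.6% of all genes, and the median was -0.17 and -0.53.

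Sterol genes are known to be driven by SREBP factors through short sterol regulatory elements, so the letters TCACNCCAC were searched on both strands of the promoters of the list. The window ran from 250 bases before to 50 bases after each gene start in the RefSeq annotation of Sscrofa11.1. The motif was in 4 of 23 matched promoters of the list, or 17.4%, and in 179 of 19559 protein-coding promoters, or 0.915%. The windows of 3 of the 4 are printed in the motif's direction, with the motif in capitals, because SQLE is among the 4 genes that passed the fold, HMGCS1 is an early enzyme of the pathway and SREBF2 encodes one of the factors.
SQLE, chr4:14700310-14700339, minus strand: ccttcccaccTCACACCACgcaacgtagtt
HMGCS1, chr16:27957423-27957452, minus strand: cgtcactctcTCACCCCACttccttgccct
SREBF2, chr5:6784798-6784827, minus strand: tgacgcgccaTCACCCCACgcgccgctccg
The motif was not found in these windows of MVD, CYP51A1 and ACAT2, and a match is a description of letters, not of a bound site. SREBF2, which encodes SREBP2, was at 101 and 75.9 CPM against 129 and 98.6 in the mirror group.

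Glycolysis genes also lay below both other groups, and mitochondrial genes above them, none past the fold. All 13 glycolysis genes tested were below the other barcodes in both follicles, against 41.6% of all genes, with a median log2 ratio of -0.70 and -0.25. Against the mirror group 11 of 12 were below, against 30.4% of all genes, with medians of -0.25 and -0.27. LDHA, lactate dehydrogenase A, was at 96.6 and 104 CPM against 143 and 153 in the mirror group, ratios of 0.678 and 0.680. ENO1, enolase, was at 965 and 966 CPM against 1186 and 1290.

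The 13 mitochondrial genes were each above both groups in both follicles, against 29.7% of all genes for the other barcodes and 41% for the mirror group. The limits on barcodes used the summed share of these same genes, so nothing is read from that count. Their median log2 ratio was 0.32 and 0.15 against the other barcodes and 0.34 and 0.31 against the mirror group, and together they took 31203 and 31298 CPM against 25427 and 29004 in the other barcodes. The part of the mitochondrial share in the other differences was not tested. None of the 57 ribosomal protein genes tested passed the fold, with medians of 0.05 and below in absolute size.

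**Figure D3:**
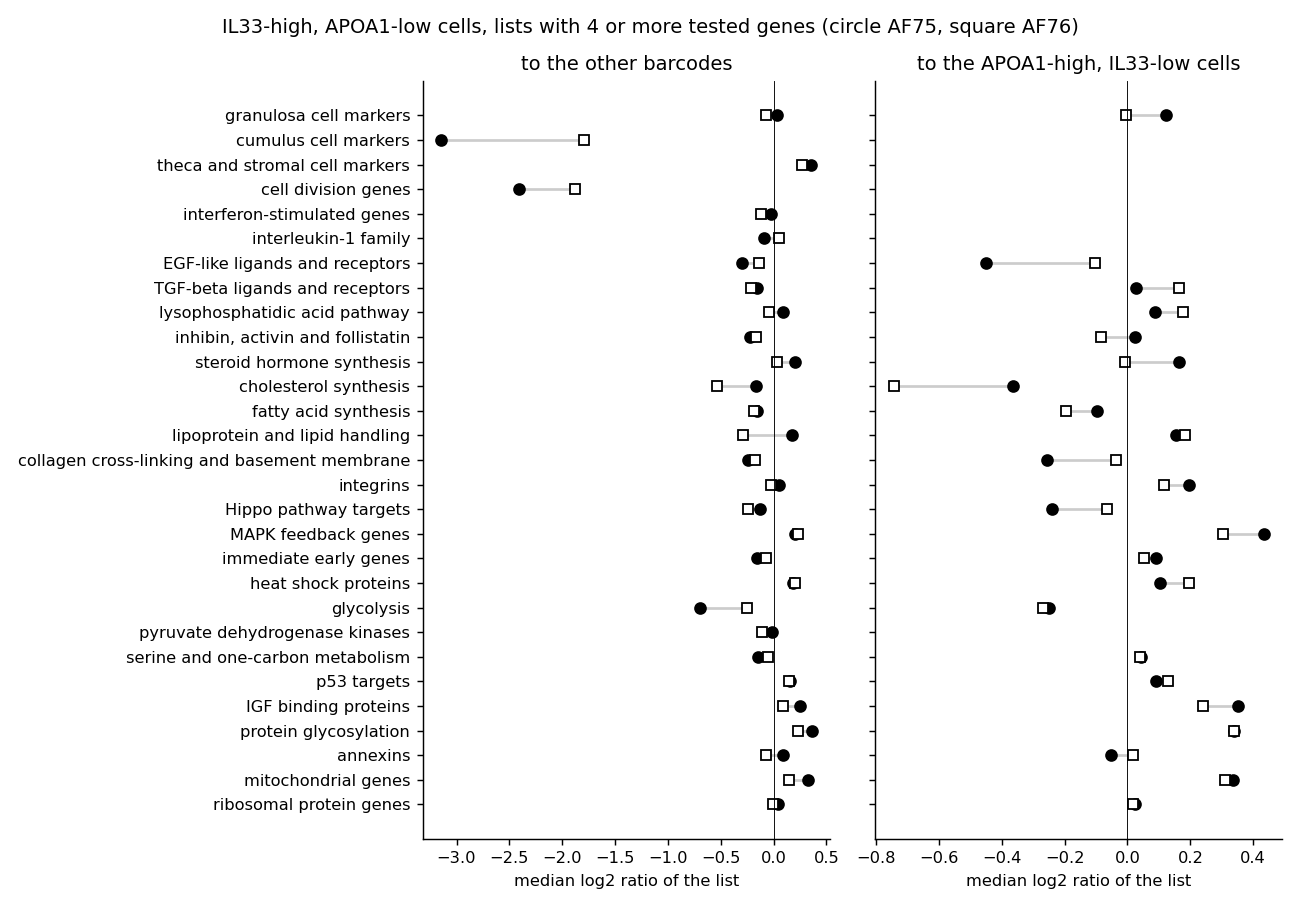
Median log2 ratio of CPM for each list with 4 or more tested genes, in the IL33-high, APOA1-low cells against the other barcodes (left) and the APOA1-high, IL33-low cells (right). Circles are AF75 and squares AF76; cumulus and cell division lists are lowest on the left, where the rule chose against them, and on the right cholesterol synthesis lies at -0.37 and -0.74, the lowest median there in AF76, while in AF75 the EGF-like list is lower at -0.45.

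Members of further lists also passed. Among extracellular matrix genes LOX was higher in both comparisons, COL18A1, which encodes a basement membrane collagen, was at 1.31 and 1.46 CPM against 6.76 and 3.38 in the other barcodes, through which it reached the filter on low values with 567 and 222 UMIs against 36 and 63, and HSPG2, perlecan, was 0.599 and 0.661 times the mirror group. Of the 10 matrix genes tested against the other barcodes, 1 was higher and 1 lower, against 0.886% and 2.78% of all genes. Of the 9 tested against the mirror group, 1 was higher and 1 lower, against 1.61% and 1.14%. Nothing is read from the call of COL18A1. CTGF and F3 were the members of the Hippo target list that passed, lower in both comparisons, 2 of 11 and 2 of 10 genes tested, against 2.78% and 1.14% of all genes. In AF75 F3 reached the filter of the mirror comparison with 153 and 57 UMIs, through the mirror group where it was higher. Those 153 UMIs of the chosen cells alone were also under the filter against the other barcodes, so nothing is read from its calls. IGFBP7, a binding protein of the insulin-like growth factor family, was at 1659 and 2240 CPM against 950 and 1416 in the mirror group. IGFBP6, of the same family, was lower in both comparisons, at 7.67 and 4.95 CPM against 40.03 and 12.3 in the other barcodes and 14.2 and 17.7 in the mirror group. Of the 4 IGF binding protein genes tested in each comparison, none was higher and 1 lower than the other barcodes, against 0.886% and 2.78% of all genes, and 1 was higher and 1 lower than the mirror group, against 1.61% and 1.14%. IFIT1, an interferon-induced gene, was at 7.23 and 8.22 CPM against 4.25 and 4.11 in the other barcodes and 2.503 and 3.66 in the mirror group. It was the 1 higher gene of the 4 and 3 interferon-stimulated genes tested, against 0.886% and 1.61% of all genes. The mirror group held 12 and 23 UMIs of it against 198 and 355 in the chosen cells, so it reached the filter on low values there through the chosen cells.

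For TGFB3 and CYP19A1, barcodes that missed 1 of the IL33 clauses lay between the chosen cells and the mirror group. For TGFB3 the chosen cells were at 233 and 254 CPM, cells with enough IL33 but too much APOA1 at 150 and 156, and cells with too little IL33 at 136 and 93.8. The mirror group was at 68.0 and 69.9 and barcodes with 10 or more VCAN UMIs at 57.0 and 80.7. CYP19A1 took the same order at its ends, with 44.6 CPM in the chosen cells of both follicles, 32.4 and 27.1 with too much APOA1, 30.5 and 33.4 with too little IL33, and 12.3 and 13.2 in the mirror group.

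Some genes did not lie between in this way. LIMCH1 was at 168 CPM in the AF75 cells with too little IL33, above the chosen cells at 153, and MTHFD2 at 143 in those of AF76, below the mirror group at 157. CTGF was at 63.4 CPM in the AF76 cells with too little IL33, above the mirror group at 43.0, and MRO at 144 in those of AF75, below the chosen cells at 153.

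The 2 middle groups had no fixed order. ENPP2 was higher in the cells with too little IL33, at 81.8 and 66.9 CPM, than in those with too much APOA1, at 60.1 and 55.9, while TGFB3 ran the other way. INHBA went from 366 and 273 CPM in the chosen cells through 561 and 418 with too much APOA1 to 854 and 712 in the mirror group, and reached 3614 and 1036 in VCAN-rich barcodes. SQLE went from 230 and 189 through 290 and 302 to 346 and 380.

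**Figure D4:**
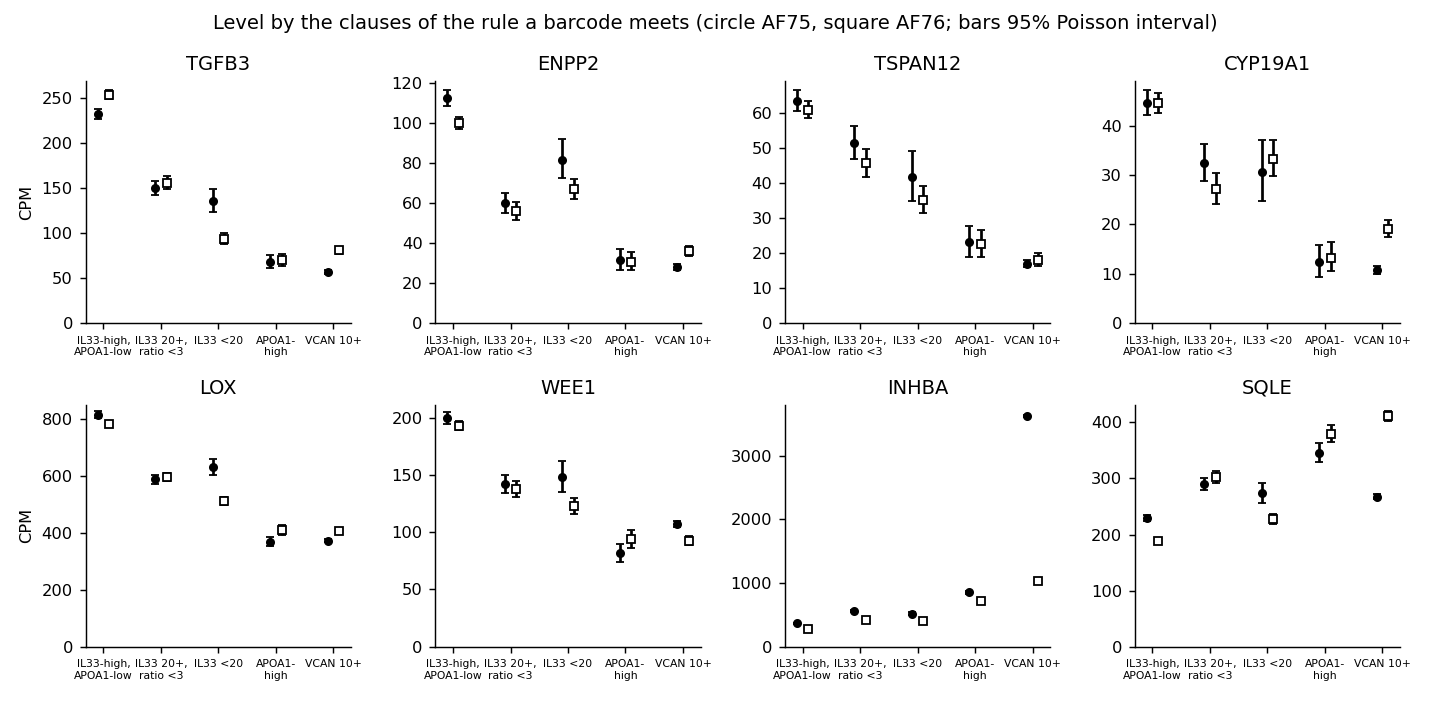
CPM of 8 genes in 5 sets of barcodes inside the limits, by which clauses of the rule they met, with circles for AF75, squares for AF76 and 95% Poisson intervals. Of the genes drawn, which leave out some that broke the order, TGFB3, ENPP2, TSPAN12, CYP19A1, LOX and WEE1 are highest in the IL33-high, APOA1-low cells, with the cells that missed 1 clause between them and the APOA1-high cells, and INHBA runs the opposite way up to 3614 and 1036 CPM in VCAN-rich barcodes.

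Between the follicles, the chosen cells were close to each other. Of 9175 genes tested, 12 were at least 2-fold higher in AF76, or 0.131%, and 17 at least 2-fold lower, or 0.185%. The median absolute log2 ratio was 0.11, against 0.13 in the other barcodes over 10287 genes and 0.12 in the mirror group over 5537. This closeness was therefore not particular to the chosen cells. AREG was 1.61 times higher in AF76 (1.60 to 1.62), and 1.93 times in the other barcodes. Among abundant genes HBB, the beta globin of red blood cells, was at 4.74 CPM in AF75 and 51.3 in AF76, and in the other barcodes its ratio was 24.1. The remaining red blood cell markers found, HBM, ALAS2 and SLC4A1, had no UMI in the chosen cells of AF75, and all 4 together made 51.7 CPM in AF76. The red blood cell list summed to 4.74 CPM against 1.77 in the other barcodes and 2.503 in the mirror group of AF75, and to 51.7 against 42.0 and 12.4 in AF76, above both groups in both follicles. The part of red blood cell RNA in these differences was not tested.

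CXCL14, a chemokine, was lower in AF76, at 26.8 and 9.35 CPM, a ratio of 0.348 (0.308 to 0.394), whereas its ratio in the other barcodes was 1.01. CHST7, a sulfotransferase, was at 20.3 and 3.33 CPM and its ratio of 0.164 was 0.270 in the other barcodes. CDKN2C, an inhibitor of cyclin-dependent kinases, was at 23.1 and 10.8 CPM, and ENSSSCG00000024911 at 24.7 and 11.7. Outside the abundance set for naming, and picked out after its values were seen, GTSF1, a gene of the germline small RNA pathway, had 287 UMIs in the chosen cells of AF75 and 1 in AF76. The other barcodes had 1104 and 1, so this difference covered the libraries and was not particular to the chosen cells.

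Within each follicle a few genes varied widely from cell to cell. Each cell was thinned to 5000 UMIs, which left out 3 cells in AF75 and 2 in AF76, and 774 genes with a mean of at least 1 UMI in both follicles were ranked by the ratio of variance to mean, whose median was 1.21 and 1.24. By the lower value of the 2 follicles GCG, the precursor of glucagon, came first at 62.5 and 87.3, with TIMP1 just above it in AF75 at 62.7. It was at 0 in 80.5% and 81.1% of the cells, and the top 5% of cells held 87.7% and 88.6% of its UMIs, with up to 204 and 319 UMIs in a single thinned cell. The other barcodes were alike, with 84.9% and 83.5% of cells at 0 and 92.2% and 92.6% of the UMIs in the top 5%. SCG2, secretogranin II, had the same shape, with 78.2% and 75.9% of the cells at 0 and 79.0% and 70.8% of the UMIs in the top 5%, against 87.2% and 81.0% in the other barcodes.

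The other leading genes were spread over most cells. TIMP1, an inhibitor of matrix metalloproteinases, had a median of 42 and 33 UMIs and a 95th percentile of 198 and 168. The metallothioneins MT1A and MT1X, which bind zinc and copper, had ratios of variance to mean of 53.4 and 49.2 and of 29.7 and 27.3, and of the pairs among the 10 leading genes they were the closest, with r of 0.67 and 0.63 over 2277 and 2920 cells that share 1 library each. GSTA1, a glutathione transferase, AREG, MSMB, CTSL, a lysosomal protease, and ENSSSCG00000014540 completed the 10, with AREG at 27.4 and 35.3. IL33 and TGFB3 were only weakly related among the chosen cells, with r of 0.17 in both follicles. TGFB3 had a median of 1 UMI per cell, the cells were selected on IL33, and the part of either in this value was not tested.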

How the data were processed

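The somatic cells of 2 pig antral follicles, AF75 and AF76, were run on the 10x Genomics platform, 1 library each, and sequenced cell by cell. The deposited values are whole UMI counts per gene and barcode, which the authors made with Cell Ranger (6.0.2 in the matrix headers) on Sscrofa11.1, not normalized; every deposited barcode had at least 500 UMIs. A chosen barcode is called a cell here. Barcodes were limited by genes and mitochondrial share and selected as the report gives. The members and gene lists were chosen with earlier results of these data known.

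For each group and follicle the UMIs of all its cells were added up and divided by the group's total (CPM). Intervals are exact 95% Poisson, Clopper-Pearson or conditional binomial and cover counting error. A gene was tested with at least 200 UMIs in each follicle over both groups (over both follicles for AF76 against AF75) and counted past 1.5-fold in both follicles, or 2-fold between follicles. No p-value was computed. Named were the markers, the 15 genes each way per comparison with at least 20 CPM in the higher group, ranked by the follicle nearer to 1, 10 each way between follicles, the 10 of largest variance to mean, and the 2 members of a list with the largest ratios each way; further list members, SLN and GTSF1 were picked after their values were seen. Genes whose listed name repeats the Ensembl identifier took their name from RefSeq or Ensembl tables of Sscrofa11.1 where unique. Doublets were not removed. Scrublet scores (scanpy 1.11.5) put 4.56% of the chosen cells in AF75 and 7.87% in AF76 among the 6.9% highest of each follicle, and leaving these out was an alternative. Ratios and calls were tested on simulated counts with known changes. Python 3.11.15, numpy 2.4.6 and scipy 1.17.1 were used. Some single genes of the lists are not reported here.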

Additional observations from a re-analysis of the deposited data

Results flagged for a closer look

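Barcodes outside the limits also met the 4 UMI clauses and entered no comparison. In AF75 there were 13 with over 5000 detected genes, 144 with under 2000 and 75 with a mitochondrial share of 7% or more. In AF76 there were 36, 216 and 68.

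ISG15, an interferon-induced ubiquitin-like gene, went in opposite directions in the follicles. Its CPM in the IL33-high, APOA1-low cells was 1.89 times that in the APOA1-high, IL33-low cells in AF75 (1.72 to 2.08) and 0.588 times in AF76 (0.556 to 0.621), on 195 and 149 CPM against 103 and 253. The level differed less in the chosen cells than in the mirror group, and the difference between follicles was not tested.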

How the results depend on the processing

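The share of barcodes chosen moved with the thresholds. With 500 to 6000 genes it was 20.6% in AF75 and 24.5% in AF76, with an IL33 minimum of 10 UMIs 27.1% and 43.1%, and with 30 UMIs 20.2% and 31.1%. With an IL33 to APOA1 ratio of 2 it was 26.7% and 39.7%, and with 5 it was 20.4% and 33.0%. In AF76 it was 35.0% with the rule on UMIs per 10000 and 35.9% with the rule on one part of evenly split UMIs. AF76 had the larger share under each of these settings.

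Counts of genes moved by over 1.5 times mainly with the filter. With 50 UMIs, 493 genes were lower than the other barcodes, 232 higher and 174 lower than the mirror group, and 48 higher and 56 lower in AF76. With 1 UMI the counts were 476 higher and 1414 lower than the other barcodes, 1302 and 463 against the mirror group, and 1240 and 1026 in AF76. Thinned to 5000 UMIs, 179 genes were lower than the other barcodes, 59 lower than the mirror group, and 3 higher and 9 lower in AF76. With the rule on one part of the UMIs and values from the other, 60 were lower than the mirror group and 5 higher and 10 lower in AF76; fewer genes reach the filter in these settings. Against other barcodes poor in VCAN and cell division genes, 42 were higher and 57 lower. The log2 ratio of AREG to the mirror group in AF75 turned to -0.013 at a ratio of 5 and to -0.0048 with the split UMIs, where the cause was not tested. In all, 146 values of single genes were recomputed under up to 16 alternatives, which gave 2260 recomputed values. Of these, 1856 stayed within the counting interval of the main value, 402 left it with the same sign, and the 2 of AREG changed sign. No paired test over the 2 follicles was run, and ratios between groups of cells were taken within each library. One animal and 1 library per follicle limit all comparisons, and genes under 200 UMIs were not resolved at this depth.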
